A study of Mus musculus with 9 samples.

Results

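The change common to both injuries was measured in blood by pooling the 6 injured mice of the series and setting them against its 3 control mice, so that all 9 arrays, 1 per animal, entered the comparison. Every gene was followed, 18194 of 18194, with 1 probe set per gene symbol, that with the highest mean over the 9 arrays. All animals were C57BL/6 mice aged 8 to 9 weeks, and no allele, transgene or cell sort was involved. The 3 Ctrl mice were not injured and were bled by cardiac puncture once anesthesia had taken effect. The 3 PT mice received a polytrauma of the chest (blunt, on both sides), the head and the thigh, where the femur was broken under closed skin and soft tissue was hurt, and blood was drawn 4 h later. The 3 PT+HS mice received the same polytrauma and a hemorrhagic shock, in which blood was withdrawn until the mean arterial pressure reached 30 mmHg and that pressure was held for 60 min. They were then given 4 times the volume drawn as electrolyte solution over 30 min, and were also sampled 4 h after trauma. After the fluid, norepinephrine was given where needed to hold the pressure at its target. An amount of it is reported for PT+HS only, and its effects cannot be told apart from those of the shock. The injured mice shared hours of anesthesia, buprenorphine and catheters, none of which the Ctrl mice had, and the effects of these and of the trauma cannot be told apart. Nothing in the labels ties replicates of different groups to each other or names a batch or a scan date. One array, PT replicate 2, stood apart from the other 8, and results are given with it (9 arrays) and without it (8 arrays).

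Severe injury is known to release neutrophils from the bone marrow and the vessel wall within hours, to start inflammatory programs in myeloid cells through pattern recognition and cytokine receptors, and to raise glucocorticoids and catecholamines, which move lymphocytes out of the blood. Neutrophils carry proteases and antimicrobial proteins in granules made at successive stages of maturation, so that the transcripts of early granules fade as the cell matures and those of late granules, such as gelatinase, remain. B cells are recognized by their antigen receptor components, by CD20 and by genes of antigen presentation to helper T cells, the MHC class II genes. Because whole blood was placed in RNA-stabilizing tubes, the arrays read platelet and reticulocyte RNA along with that of leukocytes. A lower value can stem from fewer cells of a type or from less RNA per cell. Likewise, a higher value can stem from more cells of a type or from more RNA per cell. In neither direction can these be told apart here.

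The labelled tissue was checked with markers of blood cells. The mean log2 level of 13 platelet genes lay between 9.36 and 10.04 on all arrays, that of 15 red cell genes between 8.59 and 9.33, and that of 12 heart and skeletal muscle genes between 3.42 and 3.70. The adult globin probe sets carry several gene symbols each and were mostly left out, and the remaining one of Hba-a1 read 3.01 to 3.84. Correlations of PT replicate 2 with the other arrays were 0.900 to 0.944, against medians of 0.963 to 0.974 for each of the others. The median SD between arrays over all genes was 0.222 in Ctrl, 0.290 in the injured and 0.246 in the injured without PT replicate 2. Ribosomal 18S RNA, read by 3 control probe sets, was at 12.69, 12.21 and 13.03 in Ctrl, 13.75, 12.41 and 13.63 in PT, and 13.66, 13.32 and 13.78 in PT+HS. The injured exceeded Ctrl by 0.78 on the log2 scale (two-sided exact permutation test, p = 0.0714, adjusted p = 0.357 over 5 control measures) and, without PT replicate 2, by 0.99 (exact p = 0.0357, the smallest that 56 splits can give, adjusted p = 0.0893). The bioB, bioC and bioD hybridization controls, which are added to the sample, differed by -0.06 between injured and Ctrl (exact p = 0.571) and, without PT replicate 2, by -0.11 (exact p = 0.0357, adjusted p = 0.0893). The part of these in the gene results was not tested. Signal ratios between the ends of the beta-actin and Gapdh transcripts, a sign of RNA integrity, ranged from -0.11 to 0.20 on the log2 scale with no order by group.

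Injured blood showed a strong rise of a set of myeloid genes, led by the collagenase Mmp8 and the decoy interleukin-1 receptor Il1r2, and a lower level of B-cell genes. With all 9 arrays, Mmp8 and Il1r2 were the 2 genes with an adjusted p under 0.05 (limma, Benjamini-Hochberg over all genes), 0.011% of those tested, and 0 genes fell, the smallest adjusted p among lower genes being 0.0815. In the same fit 1079 genes (5.93%) had an unadjusted p under 0.05. At the thresholds of the study, that is an unadjusted p under 0.05 together with 1.5-fold or more, 304 genes rose (1.67%) and 302 fell (1.66%), 606 in all (3.33%). The values of the 6 injured mice did not overlap those of Ctrl for 277 higher (1.52%) and 294 lower genes (1.62%), together 3.14%, and 131 and 113 genes, respectively, met both conditions. Without PT replicate 2, 84 genes rose at an adjusted p under 0.05 (0.462%) and 6 fell (0.033%), 90 in all (0.495%), while 452 rose (2.48%) and 250 fell (1.37%) at the study's thresholds (3.86% in either direction) and 1455 (8%) had an unadjusted p under 0.05. The 5 injured mice left did not overlap with Ctrl for 560 higher (3.08%) and 429 lower genes (2.36%), or 5.44%. Thus the number of genes past an adjusted p under 0.05 went from 2 to 90 with a single array removed. It also moved to 38 without PT replicate 3, to 3 without Ctrl replicate 1 and to 0 without Ctrl replicate 2 or 3, and was 1 without PT replicate 1 or any PT+HS array. Of the 304 genes higher with 9 arrays, 288 (94.7%) were also called with 8, where they made up 63.7% of the calls, and of the 302 lower genes 227 (75.2%) were, or 90.8% of the calls with 8. Lists of calls with 9 and 8 arrays share most of their arrays. Of the 90 genes called by adjusted p without PT replicate 2, 88 also passed the study's thresholds with 9 arrays, 82 higher and 6 lower.

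Mmp8, which encodes the collagenase of neutrophil granules, read 6.06, 5.00 and 5.40 in Ctrl, 10.52, 8.74 and 9.75 in PT, and 10.58, 9.51 and 10.63 in PT+HS on the log2 scale. Even the lowest injured value, in PT replicate 2, lay well above every Ctrl value. The difference was 4.47 (SE 0.41, adjusted p = 0.00631), a 22.2-fold higher signal, and 4.71 (SE 0.31) without PT replicate 2. Il1r2, which binds interleukin-1 without signaling, read 5.61, 4.92 and 3.73 in Ctrl, 9.67, 7.80 and 9.08 in PT, and 9.65, 8.90 and 9.55 in PT+HS. The groups did not overlap and PT replicate 2 was again the lowest of the injured. The difference was 4.35 (SE 0.46, adjusted p = 0.0124), or 20.4-fold, and 4.62 (SE 0.36) without it. Neither gene had an adjusted p under 0.05 without Ctrl replicate 2 or without Ctrl replicate 3, where their differences were 4.22 and 4.43 for Mmp8 and 4.44 and 3.84 for Il1r2.

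The leading genes on the other side were of the B cell. Fcer2a, the low-affinity IgE receptor CD23 of mature B cells, read 7.50, 8.12 and 8.63 in Ctrl, 5.30, 5.25 and 7.16 in PT, and 5.15, 6.18 and 5.99 in PT+HS. All injured values were below all Ctrl values, with PT replicate 3 closest to them. Its difference of -2.24 (SE 0.42, adjusted p = 0.112), a 4.73-fold lower signal, passed the study's thresholds only, as it did without PT replicate 2 (-2.13, SE 0.42, adjusted p = 0.0612). Tnfrsf13c, the receptor for the B-cell survival factor BAFF, read 5.98, 6.84 and 7.35 in Ctrl, 5.43, 3.46 and 5.81 in PT, and 5.49, 4.98 and 4.57 in PT+HS, so that PT replicate 3 and Ctrl replicate 1 nearly met. Its difference was -1.77 (SE 0.47, adjusted p = 0.347) and -1.47 (SE 0.33, adjusted p = 0.0993) without PT replicate 2.

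The sequences that lie upstream of these genes are shown because the 2 genes that rose most and the 2 lower ones moved in opposite directions in the same blood. They are the first 2 genes in each direction, by the size of the difference, that the promoter table holds, 250 bases up to the annotated start, from RefSeq (GRCm38.p6), 5′ to 3′ on the strand of the gene. Mmp8 is at chr9:7558179-7558428 (plus strand), Il1r2 at chr1:40085843-40086092 (plus strand), Fcer2a at chr8:3694175-3694424 (minus strand) and Tnfrsf13c at chr15:82224381-82224630 (minus strand). Capitals mark matches to 5 motifs searched on both strands: the PU.1 core GAGGAA, the C/EBP motif TTGCNNAA, the AP-1 motif TGANTCA, the glucocorticoid receptor half-site AGAACA and the E-box CACGTG. The matches do not overlap each other.
Mmp8: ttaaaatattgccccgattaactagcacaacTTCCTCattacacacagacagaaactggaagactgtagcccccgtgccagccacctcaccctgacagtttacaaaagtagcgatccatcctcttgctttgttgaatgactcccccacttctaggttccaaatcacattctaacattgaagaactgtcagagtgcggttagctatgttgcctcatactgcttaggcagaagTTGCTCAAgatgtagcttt
Il1r2: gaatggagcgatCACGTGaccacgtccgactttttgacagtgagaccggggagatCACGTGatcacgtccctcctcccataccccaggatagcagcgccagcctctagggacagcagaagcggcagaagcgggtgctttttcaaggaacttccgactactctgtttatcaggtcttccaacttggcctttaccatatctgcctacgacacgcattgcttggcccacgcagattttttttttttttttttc
Fcer2a: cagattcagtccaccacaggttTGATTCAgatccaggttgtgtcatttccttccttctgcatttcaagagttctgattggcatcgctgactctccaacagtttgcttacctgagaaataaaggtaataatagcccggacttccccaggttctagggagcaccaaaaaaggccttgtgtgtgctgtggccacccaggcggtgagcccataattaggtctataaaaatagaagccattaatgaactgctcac
Tnfrsf13c: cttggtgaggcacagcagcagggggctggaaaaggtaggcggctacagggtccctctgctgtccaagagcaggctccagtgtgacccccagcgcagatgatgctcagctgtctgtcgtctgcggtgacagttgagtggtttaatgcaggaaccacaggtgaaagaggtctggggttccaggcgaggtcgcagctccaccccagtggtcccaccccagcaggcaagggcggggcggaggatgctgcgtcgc
The Mmp8 window held a PU.1 core on the opposite strand and a C/EBP match 19 to 12 bases before the start, the Il1r2 window held 2 E-boxes, the Fcer2a window held an AP-1 match, and none of these letters occurred in the Tnfrsf13c window. PU.1 and C/EBP proteins are the main factors of myeloid cell identity. Over all genes, 14453 had a promoter in the table, and 22.7% of these held the PU.1 core, 8.08% the C/EBP motif, 5.53% the AP-1 motif, 12.5% the glucocorticoid receptor half-site and 7.58% the E-box. Among 243 of the 304 genes higher at the study's thresholds the shares were 32.1%, 9.88%, 5.35%, 14.4% and 9.05% in the same order. Among 229 of the 302 lower genes they were 23.6%, 6.55%, 1.75%, 12.7% and 9.61%. Among 70 promoters of the 84 genes that rose by adjusted p without PT replicate 2 they were 37.1%, 12.9%, 4.29%, 18.6% and 8.57%. These shares are descriptions of letters in a window and were not tested.

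**Figure D1:**
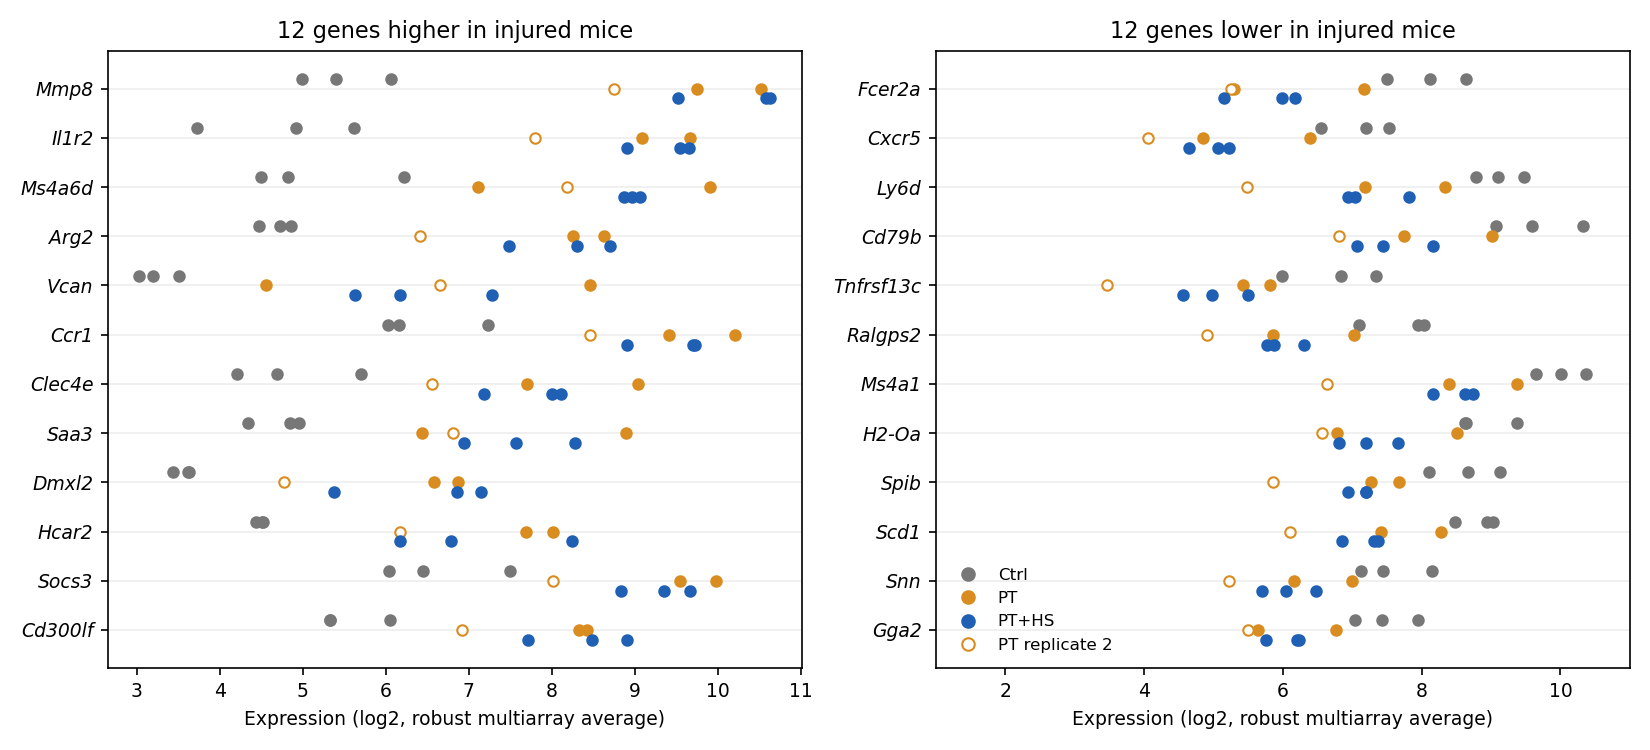
Log2 expression (horizontal axis) of 12 genes higher and 12 genes lower in injured mice, 1 point per array, in Ctrl (grey), PT (orange) and PT+HS (blue). The genes were chosen so that for each the 6 injured values lie on one side of the 3 Ctrl values. PT replicate 2 (open circle) is often the injured value nearest to Ctrl on the left panel and farthest from it on the right, as for Mmp8 at 8.74 and Tnfrsf13c at 3.46.

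Beyond Mmp8 and Il1r2, the highest differences without overlap with 9 arrays were those of Ms4a6d, Arg2, Vcan, Ccr1, Clec4e, Saa3, Dmxl2, Hcar2, Socs3 and Cd300lf. All 10 passed the study's thresholds, with adjusted p between 0.0554 and 0.146, and all except Vcan had an adjusted p under 0.05 without PT replicate 2. Arg2, the mitochondrial arginase, read 4.86, 4.72 and 4.47 in Ctrl, 8.63, 6.41 and 8.26 in PT, and 8.30, 7.48 and 8.70 in PT+HS. The 3 Ctrl values were close together, and PT replicate 2 was about midway between them and the other injured values. The difference rose from 3.28 (SE 0.44, adjusted p = 0.0554) to 3.59 (SE 0.25, adjusted p = 0.000251) without that array. Ccr1, a receptor for inflammatory CC chemokines, was higher by 2.93 (SE 0.38), and Socs3, the feedback inhibitor of cytokine signaling through STAT3, by 2.57 (SE 0.42). Clec4e, the lectin Mincle that senses dead cells, was higher by 2.90 (SE 0.48) and the inhibitory receptor Cd300lf by 2.56 (SE 0.38). Hcar2, the receptor for beta-hydroxybutyrate and niacin, read 4.43 to 4.53 in Ctrl and 6.17 to 8.24 in the injured, a difference of 2.69 (SE 0.46). Saa3, an acute-phase serum amyloid gene also made by leukocytes, read 4.34 to 4.95 in Ctrl and 6.44 to 8.89 in the injured. Its difference was 2.77 (SE 0.48), with PT replicate 3 and not PT replicate 2 as the lowest injured value. Vcan, which encodes the matrix proteoglycan versican of monocytes, was the most variable, at 3.03, 3.19 and 3.51 in Ctrl, 8.46, 6.66 and 4.56 in PT, and 6.18, 5.63 and 7.28 in PT+HS. Its difference of 3.21 had an SE of 0.66 and its adjusted p was 0.146 with 9 arrays and 0.0863 with 8.

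Among genes with an adjusted p under 0.05 and no overlap without PT replicate 2, the next by size were the early response gene Ier3 (2.74, SE 0.38), the ectoenzyme Bst1 (2.66, SE 0.31), the formyl peptide receptor Fpr2 (2.52, SE 0.40), the glycoprotein Lrg1 of neutrophil granules (2.51, SE 0.45), Hdc, which makes histamine (2.51, SE 0.27), and the fatty acid binding protein Fabp5 (2.42, SE 0.41). Their adjusted p lay between 0.00373 and 0.0418. With all 9 arrays their differences were 2.18 to 2.53 and Lrg1 overlapped with Ctrl, where replicate 1 read 7.07 and PT replicate 2 read 6.71. Of the 84 genes that rose in this fit, 30 were at least 4-fold higher and the smallest difference was 0.89. Several of the others, chosen after their values were seen, fall into known functions. Acod1, which makes itaconate in activated macrophages, was higher by 2.40 (SE 0.34), the sheddase Adam8 by 2.34 (SE 0.28), the shared receptor chain Csf2rb of interleukin-3 and GM-CSF by 2.10 (SE 0.33), the inflammatory caspase Casp4 by 1.84 (SE 0.24) and the ATP-degrading enzyme Entpd1 (CD39) by 1.83 (SE 0.21).

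The 6 genes that fell at an adjusted p under 0.05 without PT replicate 2 were Spib, Anxa6, Cd40, BC035044, Vpreb3 and Ccdc50. Spib, a transcription factor of B cells, read 8.11, 8.66 and 9.14 in Ctrl, 7.27, 5.86 and 7.68 in PT, and 7.20, 7.19 and 6.93 in PT+HS. The injured were below Ctrl in every animal, and the difference was -1.38 (SE 0.23, adjusted p = 0.0299), or -1.62 (SE 0.35, adjusted p = 0.200) with all 9 arrays. Cd40, through which helper T cells activate B cells, read 6.07 to 6.40 in Ctrl and 4.90 to 5.58 in the injured (-1.07, SE 0.16, adjusted p = 0.0169). Vpreb3, which binds newly made immunoglobulin chains in B cells, read 6.67 to 7.01 and 5.54 to 6.07 (-0.94, SE 0.15, adjusted p = 0.0254). Unlike Spib and Ccdc50, Vpreb3 differed little between the fits, with -0.99 (SE 0.16) with all 9 arrays. The other lower genes without overlap included Cxcr5, the receptor that guides B cells into follicles (-2.05, SE 0.42), Ly6d (-1.99, SE 0.49), the B-cell receptor component Cd79b (-1.95, SE 0.44), Ms4a1, which encodes CD20 (-1.69, SE 0.47), and H2-Oa of the MHC class II loading machinery (-1.63, SE 0.39), with adjusted p of 0.142 to 0.378 with 9 arrays. Scd1, the stearoyl-CoA desaturase, differed by -1.59 (SE 0.37), at 8.47 to 9.03 in Ctrl and 6.11 to 8.28 in the injured. The immunoglobulin gene Iglv1 was lower by -1.46 (SE 0.34), but near-identical family members can share its probes and the value is uncertain.

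Over all genes the median difference was -0.01 with 9 and with 8 arrays, and this is the level against which the medians of the gene lists below stand. The lists were described by counts and medians and were not tested as sets, and a member is said to have risen or fallen where it passed the study's thresholds. Over all genes 8910 of 18194 were higher, 1.67% rose and 1.66% fell with 9 arrays, and 2.48% rose and 1.37% fell with 8. In a fit limited to the 9097 genes above the median level, 262 rose and 269 fell with 9 arrays. Counts within a list stand beside these shares.

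Among neutrophil genes, those of the later stages were higher. Of 13 measured genes of gelatinase granules and mature neutrophils all were higher, 8 rose and 0 fell with 9 arrays, with a median difference of 1.01, and the median was 1.20 with 8 arrays, where 8 rose as well. Cxcr2, the receptor that draws neutrophils to CXC chemokines, read 7.87, 7.14 and 7.28 in Ctrl, 9.31, 8.13 and 9.24 in PT, and 9.53, 8.88 and 9.86 in PT+HS (1.73, SE 0.33). Haptoglobin (Hp) was higher by 1.82 (SE 0.26) without PT replicate 2, and with 9 arrays the lectin Clec4d by 1.89 (SE 0.32). In 5 of the 6 injured mice the median over these 13 genes lay 0.76 to 1.75 above the Ctrl mean, whereas PT replicate 2, at 0.08, lay within the Ctrl range of -0.15 to 0.31. Of 7 genes of secondary granules 6 were higher and 4 rose, with a median of 1.53 (1.81 without PT replicate 2, where 5 rose). They varied widely among Ctrl mice too, at a median of 1.65 in Ctrl replicate 1 and -0.90 and -0.58 in the others. Lcn2, the siderophore-binding lipocalin, showed this spread at 9.09, 6.47 and 6.91 in Ctrl, 10.57, 8.24 and 10.04 in PT, and 11.49, 9.13 and 10.64 in PT+HS (2.53, SE 0.71, adjusted p = 0.388). Olfm4 was steadier, at 2.80 to 2.97 in Ctrl and 3.05 to 5.36 in the injured (1.53, SE 0.44). Of 5 genes of primary granules, which promyelocytes make, 0 passed the thresholds, and neutrophil elastase (Elane) differed by 0.33 (SE 0.25) and myeloperoxidase (Mpo) by 0.13 (SE 0.22). Their mean level was 3.60 to 3.71 in Ctrl and 3.37 to 4.24 in the injured. The heart and skeletal muscle genes read 3.42 to 3.70. At so low a signal the primary granule probe sets cannot show whether early granule transcripts changed.

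The S100 genes were not uniformly higher. S100a8 and S100a9, the subunits of the neutrophil alarmin calprotectin, rose by 1.15 (SE 0.30) and 1.37 (SE 0.35), whereas the median of 9 S100 genes was 0.07 and no other one passed the thresholds. S100a9 read 11.28, 10.55 and 10.59 in Ctrl and 12.60, 11.27, 12.24, 13.04, 11.58 and 12.33 in the injured, where PT replicate 2, the second of these, came just under Ctrl replicate 1.

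**Figure D2:**
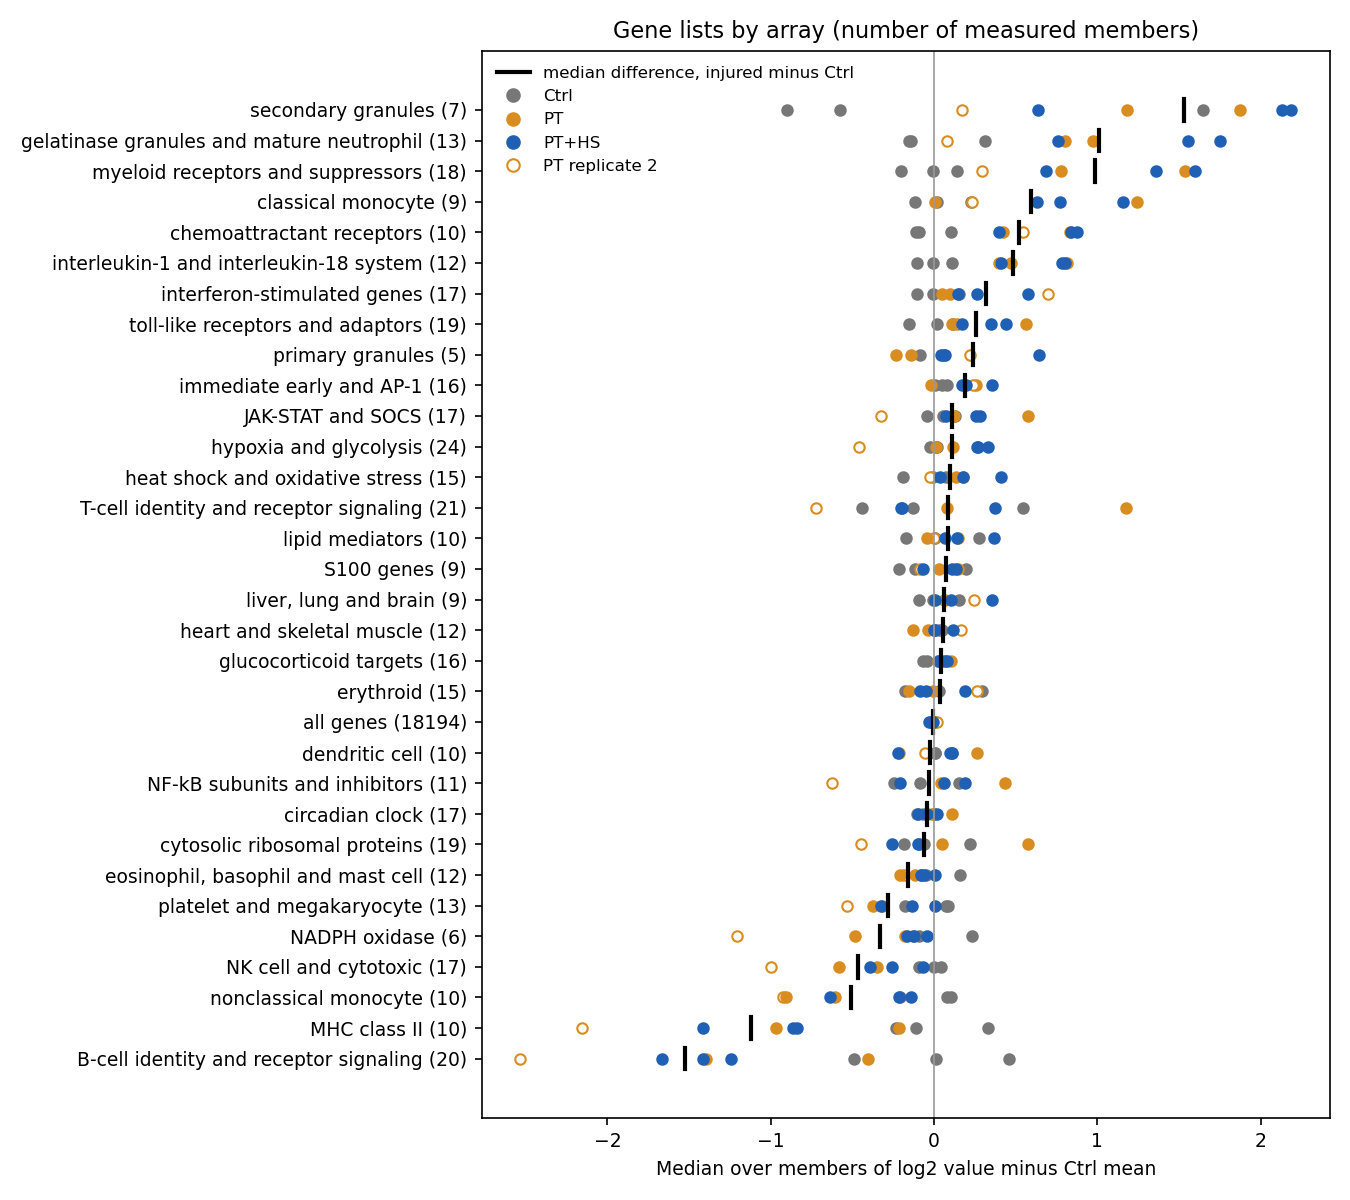
Median over the measured members of each gene list of the log2 value minus the Ctrl mean (horizontal axis), 1 point per array, with the median difference between injured and Ctrl as a black bar and the number of measured members in brackets. Neutrophil and myeloid receptor lists lie to the right, with medians of 1.01 and 0.99, and MHC class II and B-cell lists to the left at -1.12 and -1.52, with PT replicate 2 (open circle) farthest left at -2.53 for B-cell genes.

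Receptors that let myeloid cells find and sense injury were mostly higher as well. Of 10 chemoattractant receptors 9 were higher and 4 rose, among them Ccr1 and Fpr2 and also Ccr2, the receptor for monocyte chemoattractant protein (1.63, SE 0.33, with 8 arrays), with a median of 0.52 and of 0.58 with 8 arrays. Every injured mouse, PT replicate 2 included, had a list median of 0.40 to 0.88, above the 3 Ctrl mice at -0.11 to 0.10. Of 18 myeloid receptors and suppressor genes 15 were higher and 10 rose (13 without PT replicate 2), with a median of 0.99. Of 19 toll-like receptors and adaptors 13 were higher and 6 lower, and 7 rose and 0 fell, with a median of 0.26. The list median of PT replicate 3, at 0.110, lay inside the Ctrl range of -0.153 to 0.114. That of PT replicate 2, at 0.140, was just above it. Tlr2, which recognizes bacterial lipoproteins, read 5.72, 5.41 and 4.91 in Ctrl and 6.33 to 8.03 in the injured (1.63, SE 0.34). The endotoxin coreceptor Cd14 was higher by 2.15 (SE 0.48), the bacterial RNA sensor Tlr13 by 1.29 (SE 0.34) and, with 8 arrays, the adaptor Myd88 by 1.17 (SE 0.22), with Myd88 of PT replicate 2 at 7.19, inside the Ctrl range of 6.87 to 7.22. Of 12 genes of the interleukin-1 and interleukin-18 system 10 were higher and 6 rose, with a median of 0.48 (0.65 with 8 arrays, where 7 rose). Besides Il1r2 these included the receptor antagonist Il1rn (1.01, SE 0.26), the shared receptor chain Il1rap (1.91, SE 0.47) and Il1f9, which encodes interleukin-36 gamma. Il1f9 read 5.99 to 6.13 in Ctrl, and 7.45, 7.27 and 7.79 in PT, and 8.21, 7.21 and 8.25 in PT+HS. Here PT replicate 2 was not apart from the other injured, and the difference was 1.65 (SE 0.25, adjusted p = 0.0714) with it and 1.74 (SE 0.24, adjusted p = 0.00977) without it.

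The intracellular pathways behind these receptors moved in single members. Of 11 NF-kB subunits and inhibitors 0 passed the thresholds with 9 arrays, with a median of -0.03, and 2 rose without PT replicate 2, the feedback inhibitors Nfkbiz (1.03, SE 0.32) and Nfkbia (0.75, SE 0.17). Nfkbia read 9.48, 9.60 and 10.09 in Ctrl, 10.55 and 10.73 in PT replicates 1 and 3, and 10.29, 10.42 and 10.38 in PT+HS, while PT replicate 2 was at 9.01, below every Ctrl value. Of 17 JAK, STAT and SOCS genes 4 rose, with a median of 0.11 (0.27 with 8 arrays), among them Socs3 and Il6st, the shared receptor chain gp130 (1.05, SE 0.31). Of 16 immediate early and AP-1 genes 5 rose and 1 fell, with a median of 0.19. Egr1 read 3.02 to 3.63 in Ctrl and 3.89 to 4.65 in the injured (0.77, SE 0.21), Fosl2 rose by 1.12 (SE 0.36) and Junb by 1.10 (SE 0.37).

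Of 16 glucocorticoid receptor targets 3 rose with 9 arrays and 5 with 8, while their median was 0.04 and 0.02. Fkbp5, the cochaperone that damps the receptor, read 5.75, 5.73 and 6.28 in Ctrl, 8.50, 6.72 and 7.56 in PT, and 8.05, 8.16 and 8.26 in PT+HS. All injured values exceeded Ctrl, and the difference was 1.95 (SE 0.34, adjusted p = 0.0815) with all arrays and 2.19 (SE 0.22, adjusted p = 0.00288) without PT replicate 2. Klf9 was alike in size at 1.95 (SE 0.36) and 2.19 (SE 0.23, adjusted p = 0.00292). The stress gene Ddit4, also a hypoxia target, rose by 0.90 (SE 0.38), with PT replicate 2 at 6.39 within the Ctrl range of 6.39 to 6.66. Of 17 circadian clock genes Nfil3 alone rose with 9 arrays (1.10, SE 0.28), and the clock genes had a median of -0.04. Ctrl and injured mice were bled at different times after the start of anesthesia and the time of day is not given in the sources used here.

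Of 24 hypoxia and glycolysis genes 3 rose, namely the glucose transporter Slc2a1 (1.84, SE 0.37), the oxygen-regulated transcription factor Hif1a (1.14, SE 0.34) and Ddit4, with a median of 0.11. The list median was -0.03 in PT (0.09 without PT replicate 2) and 0.32 in PT+HS, so that the pooled value does not describe both injuries alike. That gap between the injured groups was not tested. Slc2a1 read 5.95, 5.50 and 6.11 in Ctrl, 8.43, 6.68 and 7.79 in PT, and 7.11, 7.67 and 8.45 in PT+HS, without overlap. Of 15 heat shock and oxidative stress genes 3 rose and 1 fell, with a median of 0.10. The metallothionein Mt1, which binds zinc and copper, read 4.05, 4.71 and 4.22 in Ctrl, 6.97, 6.09 and 5.60 in PT, and 5.75, 5.96 and 6.96 in PT+HS, with no overlap and no weaker response in PT replicate 2 (1.89, SE 0.33, adjusted p = 0.0815). Heme oxygenase Hmox1 (0.62, SE 0.24) and Hspb1 (0.60, SE 0.24) rose and the chaperone Hsp90aa1 fell (-0.59, SE 0.23) with 9 arrays, and these 3 were no longer past the thresholds without PT replicate 2.

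The effector enzymes of neutrophils did not follow the granule genes. Of 6 subunits and partners of the phagocyte NADPH oxidase, which makes superoxide, 0 were higher and 1 fell, with a median of -0.33 (-0.20 with 8 arrays). The subunit Cyba differed by -0.40 (SE 0.21) and Ncf1 by -0.51 (SE 0.36), neither past the thresholds, with Ncf1 at 6.21 in PT replicate 2 and 7.27 to 8.18 in the other injured mice. The one that fell, the proton channel Hvcn1 (-1.41, SE 0.46), is also a B-cell gene. Of 10 lipid mediator genes Pla2g7, the platelet-activating factor acetylhydrolase, rose (1.34, SE 0.30) and the lipoxygenase Alox15 fell (-0.77, SE 0.17), and the list median was 0.08. Alox15 read 4.21 to 4.90 in Ctrl and 3.67 to 4.00 in the injured. The prostaglandin synthase Ptgs2 differed by 0.26 (SE 0.14) and did not pass the thresholds. Of 17 interferon-stimulated genes 16 were higher, but 2 rose, Rtp4 (0.85, SE 0.23) and Ifit1 (0.81, SE 0.26), and the median was 0.32 with 9 and 0.24 with 8 arrays. PT replicate 2 had the highest median of these genes, at 0.70 above the Ctrl mean. PT replicates 1 and 3, at 0.05 and 0.10, and PT+HS replicate 3, at 0.14, lay inside the Ctrl range of -0.11 to 0.15.

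B-cell genes were lower in injured blood. Of 20 measured genes of B-cell identity and receptor signaling all 20 were lower, 17 fell and 0 rose, with a median of -1.52, and without PT replicate 2 again 17 fell, with a median of -1.23. Cd79a, a signaling component of the B-cell receptor, read 6.46, 7.25 and 7.19 in Ctrl, 5.60, 5.34 and 6.35 in PT, and 5.76, 5.88 and 5.74 in PT+HS (-1.19, SE 0.24, adjusted p = 0.142). The list medians of the injured were -2.53 in PT replicate 2, -0.40 in PT replicate 3 and -1.67 to -1.24 in the other 4, so that PT replicate 3 lay inside the Ctrl range of -0.49 to 0.46. Of 10 MHC class II genes 8 fell with 9 arrays and 8 with 8, with medians of -1.12 and -0.92. The invariant chain Cd74 read 10.62, 11.06 and 11.35 in Ctrl, 9.64, 8.52 and 10.44 in PT, and 10.07, 9.78 and 9.61 in PT+HS (-1.33, SE 0.35). H2-Ab1 differed by -1.18 (SE 0.32) and H2-DMa by -1.06 (SE 0.31). PT replicate 2, at a median of -2.16, was lowest and PT replicate 3, at -0.22, was within the Ctrl range of -0.23 to 0.33, the same order as for the B-cell genes.

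T-cell genes did not share this fall. Of 21 measured genes 14 were higher, 1 rose and 0 fell, with a median of 0.09. The gene that rose, the interleukin-7 receptor Il7r, read 7.59, 8.05 and 8.95 in Ctrl, 10.04, 7.85 and 11.14 in PT, and 9.37, 10.06 and 9.54 in PT+HS (1.47, SE 0.57). It overlapped through PT replicate 2 alone, and without that array the difference was 1.83 (SE 0.39, adjusted p = 0.0863) and 3 genes of the list rose. Ccr7, the receptor for entry into lymph nodes, differed by -0.98 (SE 0.47) and missed the thresholds. The list medians spread from -0.72 in PT replicate 2 to 1.18 in PT replicate 3, wider than the Ctrl range of -0.44 to 0.55 on both sides. Of 17 NK cell and cytotoxic genes 15 were lower and 4 fell, with a median of -0.47 (-0.30 with 8 arrays). The median was -0.61 in PT (-0.52 without PT replicate 2) and -0.16 in PT+HS, where replicate 2, at -0.07, lay inside the Ctrl range of -0.09 to 0.04. The difference between PT and PT+HS in this median was not tested. The transcription factor Tbx21 read 4.94, 4.22 and 4.64 in Ctrl, 3.44, 3.47 and 3.45 in PT, and 3.93, 3.68 and 3.55 in PT+HS. All injured values were below Ctrl, and the PT values were below those of PT+HS (-1.01 for the injured together, SE 0.18, adjusted p = 0.084). The NK receptor Ncr1 fell by 0.78 (SE 0.18), Nkg7 by 0.89 (SE 0.26) and granzyme A (Gzma) by 1.32 (SE 0.42).

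The lists of the 2 monocyte classes had medians of opposite sign. Of 9 genes of classical monocytes, the inflammatory class, 7 were higher and 3 rose, with a median of 0.59, among them Ccr2 and Ms4a6c (1.18, SE 0.32). Chil3, which also rose, is counted among the secondary granule genes too. The list median was 0.006 in PT replicate 3, inside the Ctrl range of -0.119 to 0.225, and 0.231 in PT replicate 2, just above it. In the other injured mice it was 0.63 to 1.24. Irf8, a factor of monocyte and dendritic cell identity, lay at 7.20 to 7.36 in Ctrl and 6.40 to 6.98 in the injured, a difference of -0.45 (SE 0.16) that did not reach 1.5-fold. Of 10 genes of nonclassical monocytes, which patrol vessels, 9 were lower, 4 fell and 1 rose, with a median of -0.51. The list median was -0.75 in PT (-0.87 without PT replicate 2) and -0.27 in PT+HS, where replicate 1, at -0.14, lay inside the Ctrl range of -0.21 to 0.11 and replicate 2, at -0.21, at its edge. This difference between PT and PT+HS was not tested. Genes that fell included the fractalkine receptor Cx3cr1 (-0.99, SE 0.29), Eno3 (-0.85, SE 0.23) and Treml4 (-0.81, SE 0.31), and the one that rose was Cebpb (0.91, SE 0.31), which neutrophils also use. The difference between the lists was not tested.

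Other cell types gave few calls. Of 10 dendritic cell genes 1 fell (Tcf4, -0.84, SE 0.28), of 12 genes of eosinophils, basophils and mast cells 1 fell (Fcer1a, -0.59, SE 0.16), and of 13 platelet genes 1 fell (P2ry12, -0.67, SE 0.27). The medians of the first 2 lists were -0.02 and -0.16. Fcer1a and P2ry12 were no longer past the thresholds without PT replicate 2. All 13 platelet genes were lower, with a median of -0.28 (-0.25 with 8 arrays). Their median was -0.45 in PT (-0.36 without PT replicate 2) and -0.12 in PT+HS. There replicates 1 and 3, at -0.13 and 0.01, lay inside the Ctrl range of -0.18 to 0.08. This gap between PT and PT+HS was not tested. Of 15 red cell genes, 19 cytosolic ribosomal protein genes, 12 heart and skeletal muscle genes and 9 genes of liver, lung and brain, 0 passed the thresholds with 9 or 8 arrays, with medians of 0.04, -0.06, 0.06 and 0.06. The cardiac and muscle genes Myl2 and Acta1 differed by 0.44 (SE 0.22) and 0.14 (SE 0.15) and the astrocyte gene Gfap by 0.26 (SE 0.18). The ribosomal protein genes varied more among the injured arrays than between the groups, from a median of -0.45 in PT replicate 2 to 0.57 in PT replicate 3.

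The size of the response differed between animals. Over the 84 genes that rose without PT replicate 2, the median excess over the Ctrl mean was 1.92 in PT replicate 1, 1.60 in PT replicate 3, and 1.77, 1.44 and 2.10 in PT+HS. These 5 arrays chose the genes, whereas PT replicate 2 did not enter that fit and its median excess was 0.71. It was above every Ctrl value for 57 of the 84 genes (67.9%), against 34.3% over all genes, and above the Ctrl mean for 66 (78.6%), against 51.8%. For the 6 genes that fell it was below every Ctrl value in all 6, against 32.7% over all genes, and its median was -1.53, lower than the -1.19 to -0.95 of the other injured. The Ctrl arrays used here for PT replicate 2 are those that entered the choice. Over the 302 genes lower at the study's thresholds with 9 arrays, the median was -1.31 in PT replicate 2 and -0.48 in PT replicate 3, and -0.86 to -0.73 in the other 4. PT replicate 2 entered the choice of these 302 genes, of which 227 were still called without it, so that its larger deficit there is partly fixed by that choice. Its lower correlation with all arrays and its 18S signal stand beside this, and their part in it was not tested. That signal, 12.41, was the lowest of the injured but lay inside the Ctrl range of 12.21 to 13.03. The SD among the injured was smaller without it for 85 of the 90 called genes, with a median of 0.62 with it and 0.38 without it. These genes were called in the fit without PT replicate 2, which favors a small SD there, so that the drop is partly fixed by that choice. Over all genes the median SD was 0.290 with it and 0.246 without it.

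**Figure D3:**
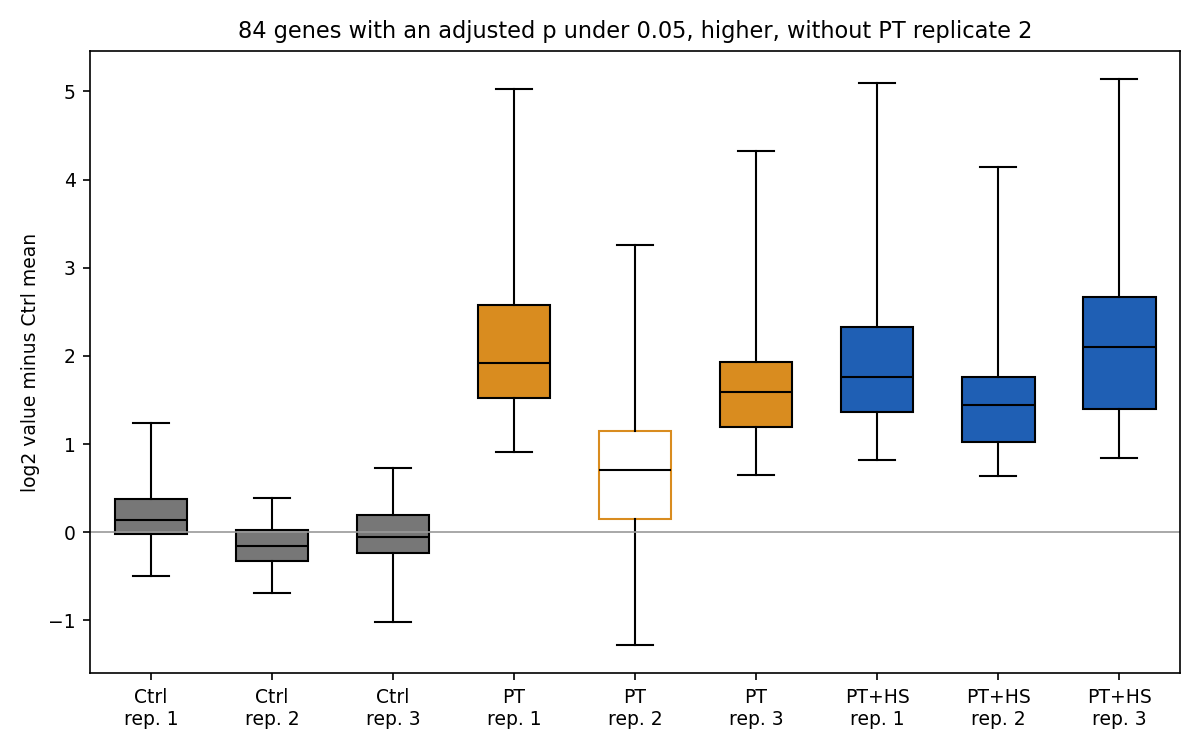
Log2 value minus Ctrl mean (vertical axis) of the 84 genes that rose without PT replicate 2, by array; boxes span the middle quartiles with the median as a line and whiskers reach the extremes. PT replicate 2 (open box) has a median of 0.71 against 1.44 to 2.10 in the 5 injured arrays that chose the genes.

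Whether the 2 injuries differed in the genes they share was asked with the contrast of PT+HS and PT, which uses the injured arrays for its difference and all arrays for the spread. Over all genes 0 had an adjusted p under 0.05 with 9 or with 8 arrays, the smallest with 8 being 0.271, while 522 (2.87%) and 1344 (7.39%) had an unadjusted p under 0.05. Among the 90 called genes 1 had an unadjusted p under 0.05 in either fit. With 9 arrays PT+HS was above PT for 84 of the 90, with a median difference of 0.34, and with 8 arrays for 39 of the 90, with a median of -0.04. The 90 genes were chosen by a fit in which a difference between PT and PT+HS counts as spread, and from arrays without PT replicate 2, so that few such differences and a median near 0 with 8 arrays are favored by the choice, and nothing is read from these counts. The 95% intervals had a median half-width of 0.89 with 9 arrays (0.41 to 1.43) and 0.67 with 8, so that differences smaller than this were mostly not detectable. For Mmp8, PT exceeded Ctrl by 4.18 (SE 0.47) and PT+HS by 4.75 (SE 0.47), and the difference of PT+HS from PT was 0.57 (-0.48 to 1.62), or 0.11 (-0.79 to 1.01) without PT replicate 2. For Il1r2 the 2 values were 4.09 and 4.61 (SE 0.54 each), with a difference of 0.52 (-0.68 to 1.72) or -0.01 (-1.04 to 1.03), and for Fcer2a -2.18 and -2.31 (SE 0.52 each), with -0.13 (-1.28 to 1.02) or -0.46 (-1.62 to 0.70). The values of PT and PT+HS against Ctrl share the same 3 Ctrl mice. For Scd1 the interval left out 0 in the 8-array fit, at -0.66 (-1.31 to -0.02), and not with 9 arrays, at -0.08 (-1.10 to 0.93).

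Among genes past the study's thresholds in the pooled comparison, those in which the injured groups differed at the smallest unadjusted p were Klf10, Gnaz, Lyl1, Naip2 and Mrvi1. They were picked for this difference, which is given as a description. Klf10, a zinc finger factor induced by TGF-beta, read 4.69, 4.52 and 4.56 in Ctrl, 3.39, 3.08 and 3.001 in PT, and 4.14, 3.84 and 3.92 in PT+HS. All injured mice were below Ctrl, with PT+HS between, and PT+HS exceeded PT by 0.81 (0.43 to 1.19). The platelet G protein subunit Gnaz (0.75, 0.35 to 1.14), the hematopoietic factor Lyl1 (0.53, 0.20 to 0.87) and Mrvi1, a regulator of calcium release in platelets (0.68, 0.14 to 1.22), had the same order, with PT lowest. Naip2, an inflammasome sensor, was higher in PT+HS, at 5.52, 5.03 and 5.37, than in PT, at 4.34, 4.29 and 3.99, while Ctrl read 4.77, 3.39 and 3.43. For these 5 genes the pooled difference averages group means that lay apart on these arrays. No gene had an adjusted p under 0.05 for PT+HS minus PT. Because the genes were picked for a small p of that contrast, their values cannot decide whether the injuries differ in them.

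**Figure D4:**
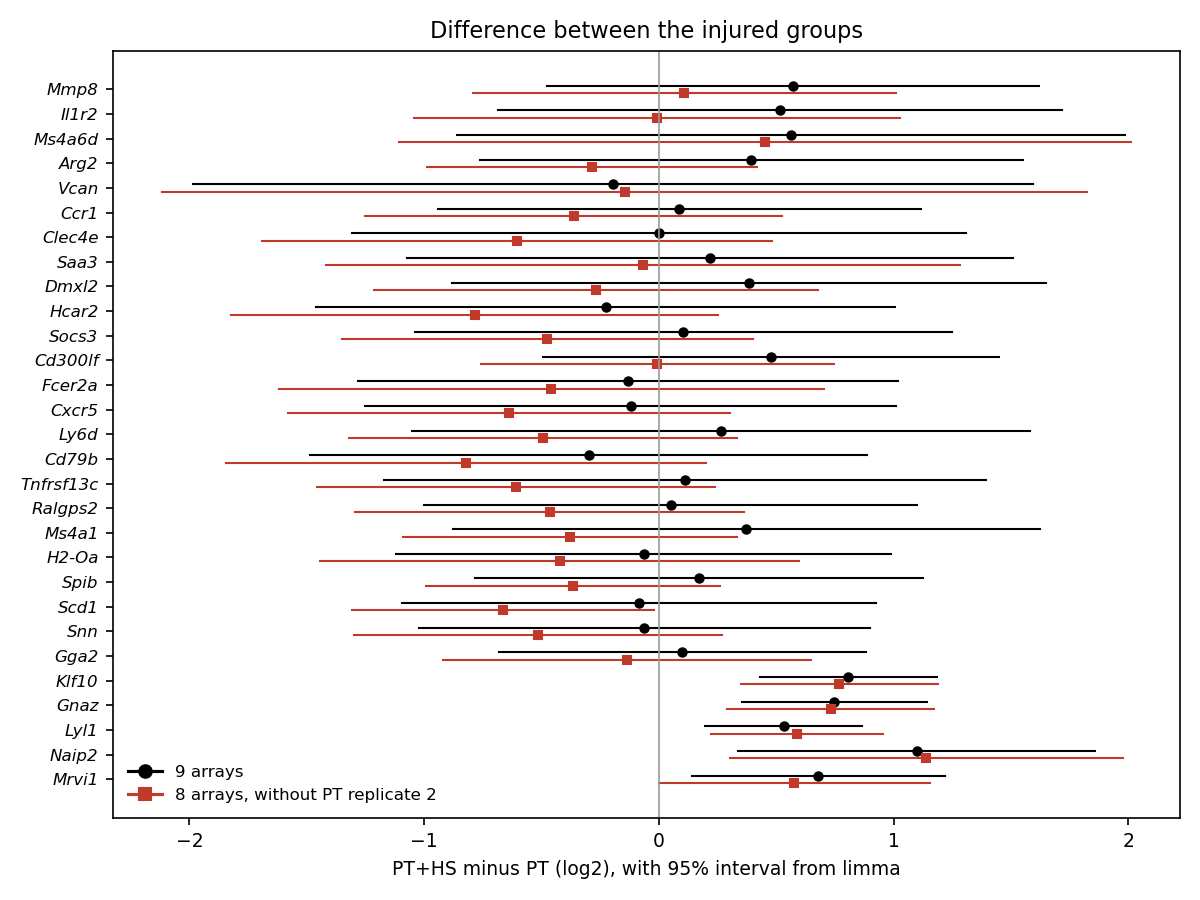
Difference of PT+HS from PT (horizontal axis, log2) with its 95% interval for the 24 leading genes of the pooled comparison and the 5 genes picked for a small p of this contrast, with 9 arrays (black circles) and 8 arrays (red squares). All intervals of the 24 leading genes include 0 with 9 arrays, and with 8 arrays that of Scd1, at -1.31 to -0.02, leaves it out.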

How the data were processed

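Blood RNA of 9 mice (3 Ctrl, 3 PT, 3 PT+HS) was measured on 9 arrays. The deposited log2 values were made by the authors by robust multiarray average, with background correction, quantile normalization and a summary per probe set, by software whose version no source names. The methods name a different type of array than the deposited probe set names, which were used for annotation. The number of arrays limits the precision.

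Of 45101 probe sets, 932 with several and 9211 with no gene symbol were left out, and 34754 were matched to RefSeq by Entrez ID. Per symbol the probe set with the highest mean was taken (18194 genes: 9182 with a single probe set, 9012 with several), with no filter on low values. limma 3.58.1 in R 4.3.3 fitted a mean for the 6 injured and one for the 3 Ctrl arrays, with a moderated two-sided test and Benjamini-Hochberg adjustment over all genes, on 9 arrays and without PT replicate 2. Calls were an adjusted p under 0.05, or the study's unadjusted p under 0.05 with at least 1.5-fold. PT+HS minus PT came from a fit with a mean per group.

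Named were up to 12 genes per direction without overlap by size, 6 more per direction from the 8-array fit, up to 4 members per list by p, and 5 genes by PT+HS minus PT. The members and the 31 gene lists (412 of 463 listed genes measured) were chosen with earlier results of these data known. Alternatives covered each array left out, the methods' t-test, a replicate block, variance trend, array weights, scalings, probe set rules, a level filter and a 2-fold threshold, and those of the 8-array fit were added after the data had been seen. Single control measures were tested by exact permutation. Means over lists were not tested. Replicates are the 3 animals per group that the methods give. Promoter sequences are from RefSeq.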

Additional observations from a re-analysis of the deposited data

Results flagged for a closer look

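Of 100 values tested for a sample standing apart within the 6 injured mice (Dixon's criterion), 6 (6%) were found, close to the 1 in 20 expected by chance. All 6 concerned PT replicate 2. The 100 values were read on the same arrays and are not independent of each other, so that nothing is concluded from this count.

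Ccdc50, a regulator of NF-kB signaling, had its lowest value there (5.86), with a gap of 0.698 of the range. Pla2g7 was also lowest, at 8.01, with a gap of 0.659, and so was Gzma at 6.66, with a gap of 0.644. The 18S ribosomal control signal was lowest, at 12.4, with a gap of 0.667. The bioB, bioC and bioD hybridization controls were highest, at 11.4, with a gap of 0.714. The median correlation with the other arrays was lowest, at 0.937, with a gap of 0.701.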

How the results depend on the processing

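The number of genes with an adjusted p under 0.05 depended on the processing, from 2 with 9 arrays to 40 with a variance trend, 103 with array weights (81 higher, 22 lower), 39 with repeated quantile normalization, 35 among genes above the median level, 58 with the replicate block and 0 with the methods' t-test (1041 at an unadjusted p under 0.05). It ranged from 0 to 90 with an array left out. Without PT replicate 2 the 90 genes became 141 with the replicate block, 176 with a variance trend, 141 among genes above the median level and 0 with the t-test (1346 at an unadjusted p under 0.05), and 22 to 225 with a further array left out: 22 without Ctrl replicate 2, 49 without Ctrl replicate 3, 54 without PT replicate 1 or PT+HS replicate 1, 59 without Ctrl replicate 1 and 225 without PT replicate 3. At the study's thresholds the 606 genes of the limma fit became 431 with the methods' t-test and 440 with the mean of probe sets. They became 966 with every probe set and 223 at 2-fold. The 702 without PT replicate 2 became 518 with the t-test, 486 with the mean of probe sets and 1123 with every probe set. Leaving out an array gave 525 to 863, and without PT replicate 2 649 to 954. Genes without overlap went from 571 to 989 without PT replicate 2. The cause of these changes was not tested, save that fewer or more probe sets or arrays entered where named. The labels do not pair the samples by replicate number. Deviations of same-numbered arrays correlated at -0.115 to 0.478, and 4 of 9 arrays correlated best with their own number. With 3 arrays per group these values cannot settle whether same-numbered arrays share a batch. Of 1685 values of 94 named genes under the alternatives 0 reversed and 81 were no longer past the thresholds, 2 to 11 for each array left out, and 70 genes passed in every alternative. Of 372 list medians under the alternatives 21 changed sign and 9 moved by over 1 SD, and of the 8 lists with a median of at least 0.5 in size 0 changed sign.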
